A study of Mus musculus with 12 samples.

Results

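Cadherins and protocadherins are cell surface proteins that neurons and glia use to recognise and hold on to one another, and the levels of their transcripts were followed here across the 4 treatment groups of a hippocampal culture experiment. Members were the genes named Cdh or Pcdh with a number, or as a gene of the alpha, beta or gamma protocadherin cluster, whose deposited estimated count averaged at least 10 over the 12 libraries. Of 91 genes with such names 85 were members, out of 19336 named genes in the table, and all 85 passed the filter on low values and had a value above 0 in every library. The members just inside the threshold were Pcdha8, Cdh15 and Cdh23, with mean counts of 12.1, 12.8 and 13.5, and the genes just outside were Cdh26 and Cdh7, with 9.18 and 8.67. The genes Pcdhb1, Pcdh12, Cdh17 and Cdh1 (E-cadherin) averaged 1.15 to 2.68 counts and are not described further.

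The study asked which transcripts in hippocampal neurons respond to nuclear back signaling by Nrg1, in which γ-secretase, a protease that cuts proteins within the membrane, frees the intracellular domain of Nrg1 after it binds its receptor ErbB4. Cultures were made from the hippocampus of wild-type mice from P4 on and kept for at least 8 days before treatment. The 4 groups, with 3 libraries each, received vehicle (DMSO and PBS), 20 nM soluble ErbB4 (sErbB4, the extracellular part of the receptor), DAPT, which inhibits γ-secretase, at 20 µM, or 20 µM DAPT followed by 20 nM sErbB4 (DAPT+sErbB4). Per the study's methods DAPT was added on the day before and sErbB4 a few hours before RNA extraction. All groups carried the same wild-type genotype, no transgene was used, and per the study's methods the replicates of a group were separate platings, so that a library holds every cell type that survived in a dish.

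Classical cadherins bind a cadherin on the neighboring cell and anchor it to actin through catenins. Type I cadherins (N-cadherin, R-cadherin) are strong adhesion molecules of broad expression, and type II cadherins are expressed in combinations that differ between neuron types and mark particular circuits. Delta protocadherins are non-clustered genes that regulate axon growth and synapse number. The alpha, beta and gamma genes lie next to each other in the genome and are chosen at random in a given neuron, except for the C-type genes at the end of the alpha and gamma clusters, and together they give a neuron a surface code used in self-avoidance. Several of these proteins are themselves cut by γ-secretase after a metalloprotease has shed the ectodomain, N-cadherin, Pcdha4 and Pcdhgc3 among them.

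To show where the regulated transcripts of this family start, the 250 bases before the RefSeq start site (GRCm38.p6) are given for Cdh9 and Pcdh20, which rose with DAPT, and for Cdh20, which fell. They lie at chr15:16728665-16728914 on the plus strand, chr14:88471397-88471646 on the minus strand and chr1:104768270-104768519 on the plus strand. Capitals mark the letters CAGCTG, the E-box of proneural bHLH factors.
Cdh9: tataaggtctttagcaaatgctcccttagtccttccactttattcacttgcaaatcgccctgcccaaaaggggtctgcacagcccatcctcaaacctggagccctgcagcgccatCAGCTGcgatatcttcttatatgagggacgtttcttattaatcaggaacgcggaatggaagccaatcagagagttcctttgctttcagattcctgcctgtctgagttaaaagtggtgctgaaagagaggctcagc
Pcdh20: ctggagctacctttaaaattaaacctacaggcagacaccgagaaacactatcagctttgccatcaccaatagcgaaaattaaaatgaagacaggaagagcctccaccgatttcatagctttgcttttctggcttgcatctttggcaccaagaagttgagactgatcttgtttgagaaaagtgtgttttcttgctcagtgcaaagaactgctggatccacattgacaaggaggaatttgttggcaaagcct
Cdh20: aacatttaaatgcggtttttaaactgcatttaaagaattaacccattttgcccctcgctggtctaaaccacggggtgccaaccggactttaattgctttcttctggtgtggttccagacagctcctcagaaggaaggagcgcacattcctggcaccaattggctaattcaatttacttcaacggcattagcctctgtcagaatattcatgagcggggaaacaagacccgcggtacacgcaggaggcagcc
Of the 85 members 20 had an entry in the promoter table, with 21 start sites. GTGGGAA, the core site of the Notch effector RBPJ (TTCCCAC on the other strand), was found in 0 of the 21 windows and in 5.42% of 32851 windows of all genes. CACGTG, an E-box of Hes and Hey proteins, was found in the window of Cdh15 alone (4.76% of the 21 windows, 6.02% of all windows). CAGCTG was found in the windows of Cdh9, where it begins 135 bases before the start site, and Cdh12 (9.52% of the 21 windows, 13.0% of all windows). The RefSeq start of Cdh9 lies downstream of the GENCODE start of the gene given below, so that most of its window, the motif included, lies inside the gene as GENCODE annotates it. CACGTG and CAGCTG read the same on both strands, and a match is a description of the letters and not of binding.

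Levels are given as CPM, the counts of a gene when the named counts of a library are scaled to 1000000 after TMM, as mean ± SD of 3 libraries or library by library in the order of replicates 1, 2 and 3. The low deposited values fall on multiples of 1 step within a library, which points to counts corrected for transcript length. Levels of different genes were compared on that reading, and their relation to transcript length was not tested. The members held 1435 ± 4.16 CPM with vehicle, 1411 ± 14.1 with sErbB4, 1347 ± 19.3 with DAPT and 1302 ± 17.2 with DAPT+sErbB4. Pcdhgc3 was the member with the highest level (mean 351 CPM over the 12 libraries), and it made up 26.4 to 29.3% of the members' summed level without DAPT and 22.3 to 23.9% with it. Cdh2 (133.0 CPM), Pcdh8 (84.6), Pcdh10 (62.8), Pcdh1 (49.3) and Cdh11 (37.5) followed. At the other end Pcdha8, Cdh15 and Cdh23 averaged 0.479, 0.504 and 0.532 CPM.

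Library totals were 36518802 to 54350270 estimated counts, of which 18697788 to 30777171 were on named genes and 31.4 to 44.6% of those on the ribosomal RNA precursor Rn45s. The members took 0.217 to 0.239% of the remaining named counts. On the second principal component sErbB4 replicate 1 (-18.3) and vehicle replicate 3 (-8.16) stood apart from the other libraries (-0.801 to 8.41), while the first component separated the 6 libraries with DAPT from the 6 without. Hes5, a Notch target, ran from 2.70 to 5.36 CPM in the 6 libraries without DAPT and from 0.615 to 1.31 in the 6 with it.

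DAPT changed a small set of members in both directions, and sErbB4 changed none at the thresholds used. A gene was called when edgeR's quasi-likelihood F test gave a Benjamini-Hochberg adjusted p under 0.05 over all 15656 genes tested and the level differed by more than 25% upward or the same fold downward (0.32 on the log2 scale). In DAPT against vehicle 5 members were called higher and 6 lower (5.88 and 7.06% of members), where 4.66 and 6.92% of all genes were called higher and lower. In DAPT+sErbB4 against sErbB4, which shares no library with the first comparison, 7 members were called higher and 6 lower (8.24 and 7.06%), beside 4.55 and 7.15% of all genes. These shares lie near those of all genes, and the median log2 fold change of the members was 0.06 and 0.07, against 0.01 and 0.01 over all genes. The family as a whole was therefore not set apart by the number of its calls, and the results below are those of single genes and classes.

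Of the members, 9 were called in the same direction in both comparisons. This is 9 of 15 called in either, 81.8% of the calls of the first comparison and 69.2% of those of the second. Cdh9, Cdh12, Pcdh8 and Pcdh20 rose, and Cdh4, Cdh10, Cdh20, Cdh22 and Pcdhgc3 fell. Over the 85 members the log2 fold changes of the 2 comparisons had r = 0.842 and rho = 0.826, with the same sign in 72. These values are a description, since members share libraries and clustered members share exons. No matching values over all genes are given for them or for the shared calls. The agreement is therefore not read as a trait of this family. Without vehicle replicate 3 and sErbB4 replicate 1 the counts were 12 and 13. Without DAPT+sErbB4 replicate 3 the count in DAPT+sErbB4 against sErbB4 dropped from 13 to 8, and with limma on log2(CPM + 2) the counts were 5 and 8.

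The non-clustered genes held most of the calls. Of 28 such members 10 were called in DAPT against vehicle (5 higher, 5 lower, 17.9% each). In DAPT+sErbB4 against sErbB4 the count was 9 (5 higher, 4 lower, 17.9 and 14.3%). Type II cadherins contributed 6 of 12 and 5 of 12 of their genes (16.7% higher and 33.3% lower, then 16.7 and 25%). Over all genes 4.66 and 6.92% were called higher and lower in the first comparison, and 4.55 and 7.15% in the second. Whether these classes differ from all genes was not tested, and they were chosen with earlier results of these data known. RNA was taken from whole dishes, so for each gene below fewer cells of a type and less RNA per cell cannot be told apart.

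**Figure D1:**
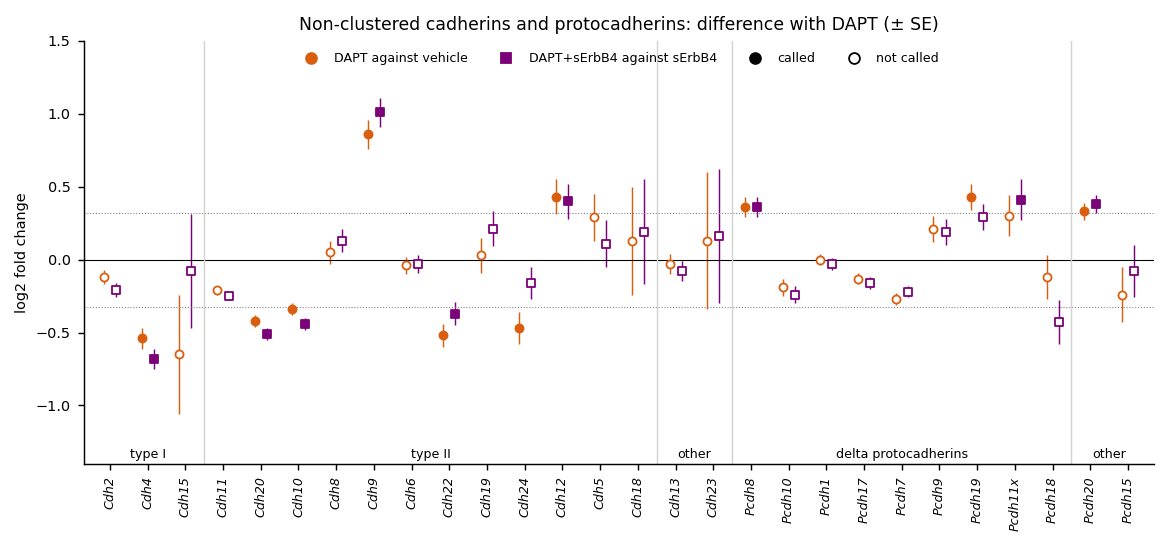
Log2 fold change (points) with its SE (bars) of the 28 non-clustered members, grouped by class and ordered by mean level, in DAPT against vehicle (circles) and DAPT+sErbB4 against sErbB4 (squares); filled symbols were called and dotted lines mark the fold threshold. Cdh9 stands highest in both comparisons (0.86 and 1.01), and Cdh4, Cdh20, Cdh10 and Cdh22 lie below -0.3 in both.

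Cdh9, a type II cadherin known from the mossy fiber synapse between dentate granule cells and CA3 neurons, showed the largest rise of the called members. The gene lies at chr15:16728756-16857094 on the plus strand (mm10). It measured 5.99, 6.69 and 7.42 CPM with vehicle, 6.64, 6.58 and 5.85 with sErbB4, 11.2, 11.5 and 13.6 with DAPT, and 12.6, 12.1 and 13.8 with DAPT+sErbB4. Every library with DAPT lay above every library without it. The log2 fold change was 0.86 ± 0.10 (SE) in DAPT against vehicle (1.81-fold, edgeR adjusted p = 9.6e-05) and 1.01 ± 0.10 in DAPT+sErbB4 against sErbB4 (2.02-fold, adjusted p = 2.1e-05). Cdh12, a brain-enriched type II cadherin at chr15:20449265-21589533, measured 2.47, 2.47 and 2.96 CPM with vehicle, 2.54, 2.87 and 2.45 with sErbB4, 3.86, 3.08 and 3.66 with DAPT, and 3.61, 3.48 and 3.31 with DAPT+sErbB4. Its groups did not overlap either, but the rise was smaller, 0.43 ± 0.12 and 0.40 ± 0.12 (edgeR adjusted p = 0.026 and 0.032). The call was lost in DAPT against vehicle without any of vehicle replicates 1 and 2 and DAPT replicates 1 and 3 (0.37 to 0.42, adjusted p = 0.066 to 0.1). It was also lost in DAPT+sErbB4 against sErbB4 without sErbB4 replicate 1 or 3 or any DAPT+sErbB4 replicate (0.35 to 0.42, adjusted p = 0.055 to 0.093). DESeq2, limma and a fit of the compared libraries alone did not call Cdh12 in either comparison (0.24 to 0.43 and 0.22 to 0.40), nor was it called in the second without both vehicle replicate 3 and sErbB4 replicate 1.

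The classical cadherins Cdh4, Cdh10, Cdh20 and Cdh22 fell with DAPT in both comparisons. Cdh4, the R-cadherin of type I (chr2:179442431-179899373), measured 26.5, 24.7 and 23.2 CPM with vehicle, 23.4, 25.2 and 28.4 with sErbB4, 16.8, 17.9 and 16.6 with DAPT, and 16.0, 15.9 and 16.2 with DAPT+sErbB4. All 6 libraries with DAPT lay below all 6 without, and the log2 fold changes were -0.54 ± 0.07 and -0.68 ± 0.07 (edgeR adjusted p = 0.00021 and 3.2e-05). Cdh20, a type II cadherin (chr1:104768529-104995481), measured 30.8, 30.9 and 30.6 CPM with vehicle, 31.6, 31.3 and 30.7 with sErbB4, 23.5, 23.1 and 22.4 with DAPT, and 20.8, 22.8 and 22.2 with DAPT+sErbB4. Its libraries varied little within a group, and the falls of 0.42 and 0.51 on the log2 scale had SEs of 0.04 and the smallest adjusted p-values of all members (edgeR, 1.5e-05 and 3.2e-06).

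Cdh10 and Cdh22 are type II cadherins too, and Cdh22 was first described in pituitary and brain. Cdh10 (chr15:18818947-19014236) measured 21.96, 22.6 and 22.6 CPM with vehicle, 22.8, 23.4 and 23.2 with sErbB4, 18.4, 17.0 and 17.8 with DAPT, and 16.8, 17.5 and 16.8 with DAPT+sErbB4. Cdh22 (chr2:165111507-165234853, minus strand) measured 9.20, 10.3 and 9.01 CPM with vehicle, 8.29, 9.93 and 9.00 with sErbB4, 6.63, 6.93 and 6.34 with DAPT, and 7.00, 6.88 and 7.29 with DAPT+sErbB4. For both genes the groups with and without DAPT did not overlap. Log2 fold changes were -0.34 ± 0.04 and -0.44 ± 0.04 for Cdh10 (edgeR adjusted p = 0.00011 and 1.1e-05) and -0.52 ± 0.08 and -0.37 ± 0.08 for Cdh22 (0.00065 and 0.0051). Cdh10 was near the fold threshold in DAPT against vehicle and fell under it without DAPT replicate 2 or 3, with limma or with unnamed loci kept (-0.32 to -0.31). Cdh22 did so in DAPT+sErbB4 against sErbB4 without sErbB4 replicate 2 (-0.29) and with limma (-0.31). Cdh9, Cdh4 and Cdh20 kept their calls in both comparisons under all 21 alternatives run.

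Cdh24, a type II cadherin that binds catenins, was called in DAPT against vehicle and not in DAPT+sErbB4 against sErbB4. It measured 3.88, 4.33 and 3.23 CPM with vehicle, 3.66, 3.35 and 3.52 with sErbB4, 2.85, 2.64 and 2.71 with DAPT, and 3.26, 2.97 and 3.17 with DAPT+sErbB4. The log2 fold change was -0.47 ± 0.11 (edgeR adjusted p = 0.011) without sErbB4 and -0.16 ± 0.11 (adjusted p = 0.37) with it, and the difference between them, 0.31 with a 95% interval of -0.04 to 0.66, was not called (adjusted p = 1). The call was lost without vehicle replicate 2 (-0.38, adjusted p = 0.051) and with limma (-0.31).

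The cadherins with the highest level in their class, Cdh2 of type I, Cdh11 of type II and Cdh13 of the others, were not called in either DAPT comparison. Cdh2 (N-cadherin, a γ-secretase substrate on chromosome 18) measured 147.4, 138.4 and 138.8 CPM with vehicle, 139.8, 147.2 and 131.9 with sErbB4, 132.2, 129.1 and 130 with DAPT, and 115.3, 123.1 and 123.3 with DAPT+sErbB4. The DAPT library at 132.2 lay above the sErbB4 library at 131.9, so that the groups overlapped, and the log2 fold changes of -0.12 ± 0.05 (edgeR adjusted p = 0.096) and -0.21 ± 0.05 (0.0065) were under the fold threshold. Cdh11 (OB-cadherin, chr8:102632095-102785642, minus strand) is a type II cadherin. It measured 39.9, 40.1 and 40.5 CPM with vehicle, 39.7, 41.3 and 41.4 with sErbB4, 34.8, 34.6 and 34.6 with DAPT, and 34.5, 34.7 and 34.0 with DAPT+sErbB4. Its groups did not overlap and its adjusted p-values were 0.00053 and 0.00016 (edgeR), but the log2 fold changes of -0.21 ± 0.03 and -0.25 ± 0.03 stayed under the fold threshold. Cdh13 (T-cadherin, which is held in the membrane by a lipid anchor and has no cytoplasmic tail, chr8:118283733-119324921) measured 20.9, 25.9 and 23.0 CPM with vehicle, 22.3, 26.1 and 24.8 with sErbB4, 22.8, 22.8 and 22.5 with DAPT, and 23.7, 23.0 and 22.6 with DAPT+sErbB4. Its log2 fold changes were -0.03 ± 0.07 and -0.08 ± 0.07 (edgeR adjusted p = 0.83 and 0.48).

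Among the 9 delta protocadherins 2 were called higher in each comparison (22.2%) and none lower, with Pcdh8 in both. Of all genes 4.66 and 4.55% were called higher. Pcdh8 (arcadlin), induced by neuronal activity and linked to N-cadherin internalisation, lies at chr14:79766775-79771312 on the minus strand. It measured 71.3, 74.3 and 79.1 CPM with vehicle, 72.6, 78.0 and 69.1 with sErbB4, 96.3, 104.5 and 87.4 with DAPT, and 93.1, 95.2 and 94.2 with DAPT+sErbB4. All libraries with DAPT lay above all without, by 0.36 ± 0.07 in each comparison on the log2 scale (edgeR adjusted p = 0.0024 and 0.0021). Without DAPT replicate 2, the highest library, the first value was 0.29 and under the fold threshold.

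Pcdh19 and Pcdh11x lie on the X chromosome (X:133582860-133688987 and X:120290259-120910619), and Pcdh19, a delta-2 protocadherin that pairs with N-cadherin, is known from an inherited epilepsy. Pcdh19 measured 7.67, 6.80 and 8.69 CPM with vehicle, 9.02, 8.43 and 8.79 with sErbB4, 11.0, 8.98 and 11.2 with DAPT, and 10.6, 10.7 and 10.7 with DAPT+sErbB4. The groups touched, since DAPT replicate 2 at 8.98 lay under sErbB4 replicate 1 at 9.02. Its log2 fold change was 0.43 ± 0.09 in DAPT against vehicle (edgeR adjusted p = 0.0069) and 0.29 ± 0.09 in DAPT+sErbB4 against sErbB4 (adjusted p = 0.039, under the fold threshold). With limma the first was 0.32 and not called. Pcdh11x, a delta-1 protocadherin, measured 3.56, 5.06 and 4.73 CPM with vehicle, 4.83, 4.85 and 3.85 with sErbB4, 5.19, 4.92 and 6.14 with DAPT, and 6.09, 6.23 and 5.76 with DAPT+sErbB4. It was called in DAPT+sErbB4 against sErbB4 (0.41 ± 0.14, adjusted p = 0.044) and not in DAPT against vehicle (0.30 ± 0.14, adjusted p = 0.15). Leaving out vehicle replicate 3, DAPT replicate 1 or any library of sErbB4 or DAPT+sErbB4 ended this call (0.31 to 0.47, adjusted p = 0.052 to 0.14), as did limma and keeping unnamed loci. Pcdh7, Pcdh10 and Pcdh17 were lower, at adjusted p-values of 0.00057 to 0.049 in DAPT against vehicle and 0.0021 to 0.018 in DAPT+sErbB4 against sErbB4 (edgeR), but by less than the fold threshold (log2 fold changes of -0.27 to -0.13 and -0.24 to -0.16). Pcdh1 and Pcdh9 did not pass in either comparison (0.00 and -0.03, 0.21 and 0.19). Pcdh18 did not pass either, at -0.12 ± 0.15 and -0.43 ± 0.15 (edgeR adjusted p = 0.63 and 0.057).

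Pcdh20 (chr14:88464743-88471396, minus strand) is a non-clustered protocadherin outside the delta group. It measured 9.67, 11.1 and 10.9 CPM with vehicle, 10.8, 11.1 and 11.0 with sErbB4, 12.8, 13.6 and 13.5 with DAPT, and 13.96, 14.7 and 14.1 with DAPT+sErbB4. The groups did not overlap, and the rises were 0.33 ± 0.06 and 0.38 ± 0.06 (edgeR adjusted p = 0.0014 and 0.00045). The first was under the fold threshold without vehicle replicate 1 or DAPT replicate 2 (0.27 to 0.32), and limma called it in neither comparison (0.26 and 0.31). Over all members, the 6 libraries with DAPT lay above the 6 without for 4 of 85 genes and below for 8 of 85. These shares are no higher than the 8.6 and 11.8% of all genes tested that separated in the same way.

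**Figure D2:**
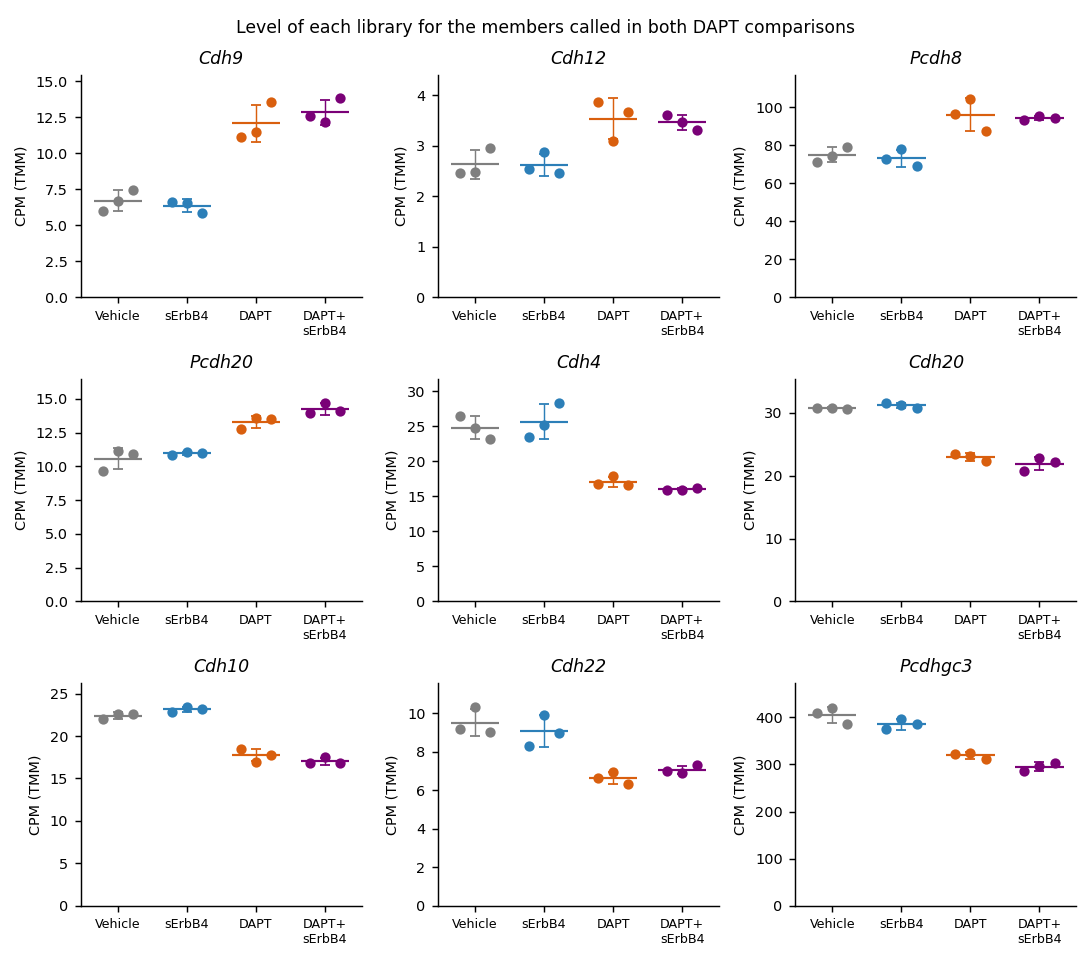
Level in CPM (TMM-scaled, linear axis from 0) of each library, with the group mean (line) and SD (bar) of 3 libraries, for the 9 members called in both DAPT comparisons. In each panel the 6 libraries with DAPT lie to the same side of the 6 without, and the vehicle and sErbB4 libraries overlap or nearly meet.

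Among the 57 clustered genes the C-type gene Pcdhgc3 was the one called in both comparisons. Transcripts of the alpha and gamma clusters join a variable first exon to the same constant exons. In the annotation the longest coding transcript of an alpha member shared 48.6 to 54.9% of its bases with another member, and that of a gamma member 13.4 to 45.5%, so that reads from these exons can be assigned to any of them. Beta members are single-exon genes of high similarity with 0 to 9.67% of overlapping bases, and reads can be split between near-identical copies, so values of single clustered genes are uncertain in a way that the replicates do not show.

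Pcdhgc3 measured 408.5, 420.5 and 386.7 CPM with vehicle, 374.3, 396.5 and 384.9 with sErbB4, 322.7, 323.8 and 311.3 with DAPT, and 285.6, 295.6 and 304.0 with DAPT+sErbB4. All libraries with DAPT were lower than all without, with log2 fold changes of -0.34 ± 0.04 and -0.38 ± 0.04 (edgeR adjusted p = 9.4e-05 and 3.7e-05). The first was under the fold threshold without vehicle replicate 2 or DAPT replicate 3 (-0.32 to -0.31) and with limma (-0.26). The other 21 gamma members together held 268.4 ± 6.25, 264.9 ± 13.1, 276.2 ± 6.08 and 266.2 ± 3.67 CPM with vehicle, sErbB4, DAPT and DAPT+sErbB4, ranges that overlapped. Pcdhgc3 was 57.3 to 61.5% of the gamma level without DAPT and 52.0 to 53.6% with it. Of all 15656 genes tested, 1813 were called in DAPT against vehicle and 1832 in DAPT+sErbB4 against sErbB4 (edgeR). An unadjusted p under 0.05 was found for 5420 and 5589 of them. The median log2 fold change of the other 21 gamma genes was 0.07 in DAPT against vehicle, with 0 called (2 at an unadjusted p under 0.05), and 0.02 in DAPT+sErbB4 against sErbB4, with 1 called (5 at an unadjusted p under 0.05).

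That 1 gene was Pcdhgc5, the C-type gamma protocadherin known to bind GABA-A receptors. It measured 11.1, 12.0 and 11.7 CPM with vehicle, 16.0, 12.0 and 10.9 with sErbB4, 9.75, 10.5 and 10.2 with DAPT, and 10.1, 9.56 and 9.64 with DAPT+sErbB4. Its highest value, 16.0, came from sErbB4 replicate 1, a library that stood apart, and the log2 fold change of -0.41 ± 0.11 (edgeR adjusted p = 0.02) was not called without this library or without DAPT+sErbB4 replicate 2 or 3 (-0.41 to -0.24, adjusted p = 0.019 to 0.065), nor in a fit of the compared libraries alone. In DAPT against vehicle it was -0.19 ± 0.12 (adjusted p = 0.27). Pcdhga5, a variable gamma gene, measured 12.6, 10.2 and 11.0 CPM with vehicle, 9.50, 10.9 and 10.3 with sErbB4, 14, 13.8 and 12.4 with DAPT, and 13.1, 12.3 and 12.9 with DAPT+sErbB4. Its values of 0.24 ± 0.08 and 0.31 ± 0.08 were not called (edgeR adjusted p = 0.051 and 0.014, under the fold threshold).

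The alpha genes were mostly higher with DAPT, by amounts that few passed singly. Positive log2 fold changes were found in 12 of 14 genes in DAPT against vehicle and 13 of 14 in DAPT+sErbB4 against sErbB4, with a median of 0.36 in each. Of the beta genes 16 and 17 of 21 were positive, of the gamma genes without Pcdhgc3 17 and 14 of 21, and of all genes 8004 and 8119 of 15656. In the alpha cluster 0 and 2 genes were called (4 and 6 at an unadjusted p under 0.05, edgeR). Over all genes 1813 and 1832 of 15656 were called (5420 and 5589 at an unadjusted p under 0.05, edgeR). The alpha genes share exons, so that their values do not count as separate observations. Their summed level was 44.2 ± 2.43 CPM with vehicle, 46.2 ± 1.40 with sErbB4, 51.1 ± 1.17 with DAPT and 54.8 ± 1.98 with DAPT+sErbB4. The 6 libraries with DAPT held 49.97 to 56.25 CPM and the 6 without 41.49 to 47.49, without overlap.

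The calls in the alpha cluster were Pcdhac1, a C-type gene, and Pcdha12, both in DAPT+sErbB4 against sErbB4 alone. Pcdhac1 measured 0.979, 1.01 and 1.18 CPM with vehicle, 1.41, 0.894 and 0.982 with sErbB4, 1.33, 1.252 and 2.06 with DAPT, and 1.74, 2.06 and 1.78 with DAPT+sErbB4. Its log2 fold change was 0.77 ± 0.25 (edgeR adjusted p = 0.041), and 8 of the 12 libraries each ended the call when left out, namely vehicle 1 and 2, sErbB4 2 and 3, DAPT 1 and all of DAPT+sErbB4 (0.64 to 0.81, adjusted p = 0.051 to 0.13). DESeq2, limma, a fit of the compared libraries alone and keeping unnamed loci ended it too. Pcdha12 measured 3.80, 4.44 and 4.82 CPM with vehicle, 4.99, 4.34 and 3.40 with sErbB4, 4.87, 6.30 and 5.55 with DAPT, and 5.26, 5.94 and 6.62 with DAPT+sErbB4. At 0.49 ± 0.15 (edgeR adjusted p = 0.034) it lost its call without sErbB4 2 or 3, DAPT 3 or DAPT+sErbB4 2 or 3 (0.36 to 0.50, adjusted p = 0.051 to 0.14), and in a fit of the compared libraries alone. In DAPT against vehicle the values were 0.55 ± 0.25 for Pcdhac1 and 0.36 ± 0.15 for Pcdha12 (adjusted p = 0.15 and 0.12).

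Pcdhac2, the C-type gene with the highest alpha level, known from serotonergic axons, measured 12.1, 17.0 and 13.8 CPM with vehicle, 13.1, 16.3 and 15.9 with sErbB4, 14, 15.5 and 12.9 with DAPT, and 15.5, 15.8 and 16.1 with DAPT+sErbB4. Its log2 fold changes were -0.01 ± 0.12 and 0.06 ± 0.11 (edgeR adjusted p = 0.96 and 0.76). The other 13 alpha genes together held 27.92 to 32.36 CPM without DAPT and 34.51 to 40.51 with it. Pcdha4, a γ-secretase substrate, measured 3.60, 2.19 and 2.96 CPM with vehicle, 1.53, 1.85 and 2.86 with sErbB4, 2.77, 3.00 and 3.66 with DAPT, and 2.39, 3.08 and 2.88 with DAPT+sErbB4. Its libraries overlapped across all groups, with values of 0.10 ± 0.23 and 0.43 ± 0.24 (edgeR adjusted p = 0.82 and 0.23).

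No beta gene was called in either DAPT comparison (edgeR, 0 of 21), where 1813 and 1832 of all 15656 genes were called. Of the 21 genes 1 had an unadjusted p under 0.05 in each, beside 5420 and 5589 of all genes (edgeR). The median log2 fold changes of the beta genes were 0.06 and 0.08. Their summed level was 81.0 ± 5.52, 81.5 ± 6.53, 84.4 ± 1.53 and 85.2 ± 1.77 CPM with vehicle, sErbB4, DAPT and DAPT+sErbB4. Pcdhb22, the beta gene with the highest level, measured 9.12, 8.15 and 9.65 CPM with vehicle, 9.30, 7.85 and 8.63 with sErbB4, 7.92, 9.61 and 8.95 with DAPT, and 8.57, 9.77 and 8.54 with DAPT+sErbB4. Its groups overlapped throughout (-0.03 ± 0.10 and 0.06 ± 0.09, edgeR adjusted p = 0.87 and 0.69).

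**Figure D3:**
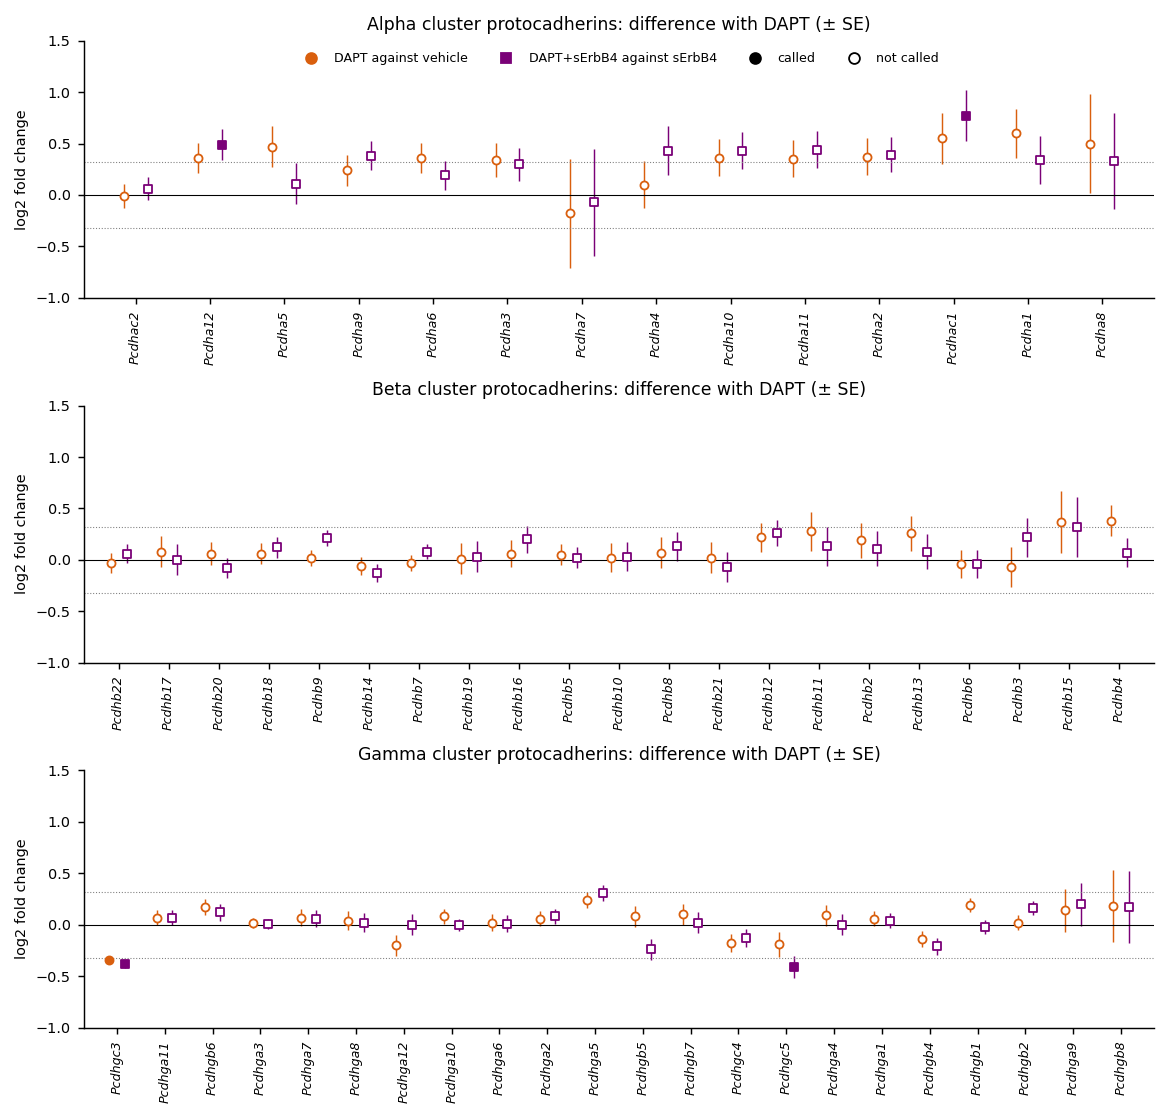
Log2 fold change (points) with its SE (bars) of the 14 alpha, 21 beta and 22 gamma members, ordered by mean level within each panel, in DAPT against vehicle (circles) and DAPT+sErbB4 against sErbB4 (squares); filled symbols were called and dotted lines mark the fold threshold. Most alpha points lie above 0 with long bars (medians of 0.36). Most beta and gamma points lie above 0 too, by less (medians of 0.06 and 0.08 for beta, 0.06 and 0.01 for gamma). Pcdhgc3 lies at -0.34 and -0.38.

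**Figure D4:**
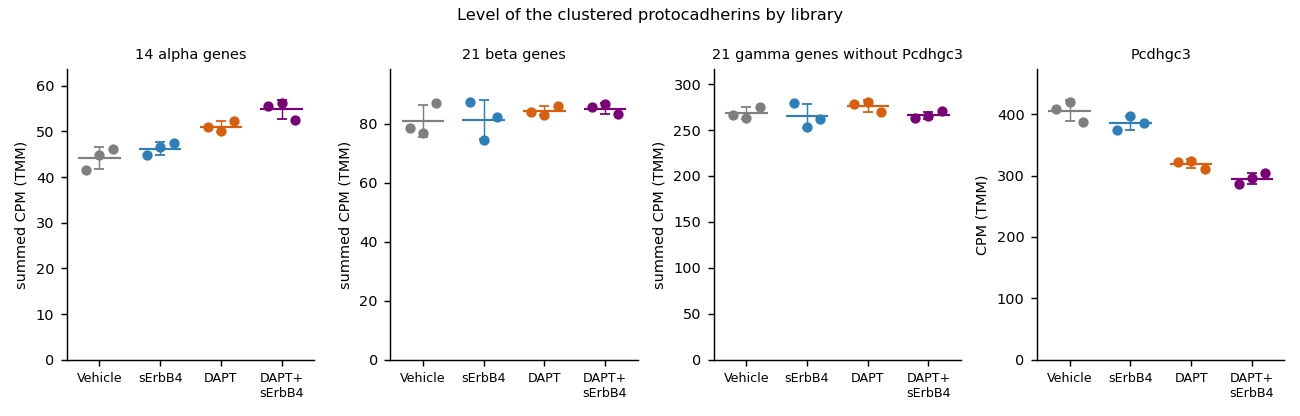
Summed level in CPM (TMM-scaled, linear axis from 0) of the alpha genes, the beta genes and the gamma genes without Pcdhgc3, and the level of Pcdhgc3, in each library with the group mean (line) and SD (bar) of 3 libraries. The alpha sum is higher and Pcdhgc3 lower in all 6 libraries with DAPT, while the beta and remaining gamma sums overlap between groups.

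Soluble ErbB4 changed no member at these thresholds, with or without DAPT. In sErbB4 against vehicle 0 of 85 members were called by edgeR, beside 0.0319% of all genes (5 genes), and 1 member, Cdh19, had an unadjusted p under 0.05 (-0.33 ± 0.12, adjusted p = 0.6). In DAPT+sErbB4 against DAPT 0 members were called, beside 0% of all genes, and Cdh2, Cdh8, Pcdha9 and Pcdhgc3 had an unadjusted p under 0.05 (-0.11, 0.21, 0.35 and -0.11, adjusted p = 0.44 to 0.51). Of all genes 7.56 and 9.21% had an unadjusted p under 0.05 in these 2 comparisons (edgeR). Limma called 0 members in both comparisons, and DESeq2 called 0 of the 9 and 19 members to which it gave an adjusted p. For 39 of the 85 members in the first of these and 42 in the second, the 95% interval of the log2 fold change lay within the fold threshold in either direction, as it did for 59.9 and 60.1% of all genes. For Cdh9 the intervals were -0.30 to 0.16 and -0.12 to 0.29, and for Pcdhgc3 -0.16 to 0.01 and -0.20 to -0.03. For the remaining members a change as large as the threshold was within the error. The effect of DAPT with sErbB4 minus that without it was called for 0 members, with 1 at an unadjusted p under 0.05 (Pcdhgb5, -0.32 ± 0.14, edgeR adjusted p = 1), beside 0.00639% of all genes. Of all genes 3.61% had an unadjusted p under 0.05 for this effect (edgeR). DESeq2 and limma called 0 members as well. The members called in only 1 of the DAPT comparisons were thus not shown to differ between them.

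The comparison of sErbB4 with DAPT shares its libraries with both DAPT comparisons and adds no separate evidence. It called 6 members higher with sErbB4 (Cdh4, Cdh10, Cdh20, Cdh22, Cdh24 and Pcdhgc5) and 4 lower (Cdh9, Cdh12, Pcdh8 and Pcdhga5), beside 6.04 and 4.05% of all genes. Pcdhga5 was called here alone, at -0.38 ± 0.08 (edgeR adjusted p = 0.0054).

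Single partners of these proteins changed with DAPT, where 4.66 and 6.92% of all genes were called higher and lower in DAPT against vehicle. Of 12 catenins and other partners of the cadherin tail 2 were called higher in DAPT against vehicle, and 1 higher and 1 lower in DAPT+sErbB4 against sErbB4. Pkp4, a p120-related catenin also called p0071, rose in both, from 46.75 to 50.40 CPM in the libraries without DAPT to 63.16 to 68.34 with it (0.45 ± 0.04 and 0.44 ± 0.04, edgeR adjusted p = 2.5e-05 and 2.4e-05). Arvcf, of the same catenin family, was called higher in the first (0.36 ± 0.07, adjusted p = 0.0029), and Ctnnd1 (p120 catenin) lower in the second (-0.37 ± 0.08, adjusted p = 0.0054). None of the 10 sheddases and γ-secretase subunits and none of 11 regulators of the clustered genes, such as Ctcf and the cohesin subunits, was called in either comparison (edgeR). Of 11 protocadherin effectors 1 was called lower in both, Cyfip1 of the WAVE complex, at 62.88 to 68.26 CPM without DAPT and 47.45 to 52.83 with it (-0.37 ± 0.04 and -0.41 ± 0.04, adjusted p = 5.7e-05 and 2.3e-05). Its paralog Cyfip2 was higher in all 6 libraries with DAPT (91.13 to 95.36 CPM) than in the 6 without (73.54 to 76.26), at 0.28 ± 0.03 and 0.31 ± 0.03, just under the fold threshold (edgeR adjusted p = 1e-04 and 4.5e-05). Of 17 tested genes of other cadherin families 3 were called higher in DAPT against vehicle and 2 in DAPT+sErbB4 against sErbB4, and none lower. Celsr1, a cadherin of planar polarity (0.52 ± 0.08 and 0.49 ± 0.08), and Clstn2, a calsyntenin of the postsynaptic membrane (0.33 ± 0.07 and 0.34 ± 0.07), rose in both, and Cdhr3 in the first alone (0.49 ± 0.13).

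Markers of several cell types moved with DAPT in the same libraries. The summed level of 6 neuronal markers was 1067 to 1271 CPM without DAPT and 1227 to 1407 with it (4 called higher and 0 lower in DAPT against vehicle, 1 and 0 in DAPT+sErbB4 against sErbB4), and that of 6 astrocyte markers was 4989 to 5978 and 5828 to 6566 (1 higher and 1 lower in each). Gfap alone held 3720 to 5138 CPM of the astrocyte sum, so that the culture, labelled as neuronal, held astrocyte transcripts too. Of 6 markers of radial glia and neural stem cells 4 were called lower in both comparisons (4481 to 5238 CPM without DAPT, 2485 to 2868 with it), and likewise 4 of 5 markers of oligodendrocyte precursors (876.2 to 974.2 and 404.4 to 453.0). Of 4 tested markers of pericytes and smooth muscle 2 were called lower in each (25.65 to 35.45 and 18.79 to 24.29). Of 5 markers of fibroblasts and meninges 2 were called higher and 3 lower in each (137.5 to 157.3 and 113.8 to 132.2). Microglial markers (1 and 2 of 5 called lower, summed level 14.37 to 19.22 CPM over all libraries), 4 tested endothelial markers (0 called, 2.454 to 4.54) and 4 of choroid plexus and ependyma (0 called, 59.53 to 128.8) were present at low or variable levels. The summed markers of radial glia, oligodendrocyte precursors, pericytes and fibroblasts were lower in all 6 libraries with DAPT than in the 6 without. Cdh4, Cdh10, Cdh20, Cdh22 and Pcdhgc3 separated in the same direction, as did 11.8% of all genes tested. A link between these genes and the markers was not tested. Within each DAPT comparison the summed neuronal level did not overlap between the groups. It was 1067 to 1132 CPM with vehicle against 1227 to 1286 with DAPT. With sErbB4 it was 1156 to 1271, against 1343 to 1407 with DAPT+sErbB4. The astrocyte sum, most of it Gfap, separated in the same way. It was 5261 to 5978 CPM with vehicle against 6173 to 6566 with DAPT, and 4989 to 5212 with sErbB4 against 5828 to 6083 with DAPT+sErbB4. The 6 astrocyte markers as a list did not rise, with a median log2 fold change of -0.00 and 0.05 in the 2 DAPT comparisons. The neuronal sum also separated vehicle from sErbB4. A link between these sums and the level of any member was not tested. Pdgfra is in the lists of both oligodendrocyte precursors and fibroblasts. Hes5, the Notch target described above, is among the markers of radial glia and neural stem cells. The part of cell composition in these changes was not tested.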

How the data were processed

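RNA was taken from hippocampal cultures of wild-type mice, and per the study's methods the platings were treated and sequenced as poly-A libraries (NEBNext, paired ends). The authors used Trimmomatic for trimming and HISAT2 for alignment to mm10, then assembled genes and transcripts with StringTie and extracted gene values with IsoformSwitchAnalyzeR, and the processing notes also name FastQC, MultiQC and limma. No versions are given in the sources used here. What the authors deposited is a table of estimated counts without normalization across libraries. Within a library, the low values (above 0, below 5) fall on multiples of 1 step (tolerance 0.01), which points to counts rebuilt from length-corrected abundances, so their spread is not that of read counts. Loci without a gene name (1976 of 21312) took up 43.4 to 51.8% of each library and did not enter the tests.

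Estimated counts were rounded to whole numbers, filtered with filterByExpr by group (15656 genes left), scaled by TMM (factors 0.926 to 1.18) and fitted with edgeR 4.0.16 (R 4.3.3) with a mean for each of the 4 groups (8 residual degrees of freedom). The quasi-likelihood F test was followed by Benjamini-Hochberg adjustment across the tested genes, with thresholds of 0.05 for the adjusted p and 25% for the change. The fold threshold is that of the study, whose own correction of p was not named for the cultures. The SE is the log2 fold change divided by the root of F. Alternatives used DESeq2 1.42.0 and limma 3.58.1. Values in every library are given for all members called in a comparison, the gene with the highest level in each class and known γ-secretase substrates. Members, classes and lists were chosen with earlier results of these data known, and the CAGCTG motif was chosen after the sequences had been read. Positions are from GENCODE M21 (84 of 85 members matched), promoters from RefSeq. Within groups, log2(CPM + 2) values correlated at r of 0.991 to 0.996. Nothing states that replicate numbers pair libraries, and p-values measure the spread between platings.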

Additional observations from a re-analysis of the deposited data

How the results depend on the processing

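Counts of called members were recomputed under 20 alternatives for each comparison (19 for the interaction, which cannot be fitted on the compared libraries alone) and 1 chosen after seeing the data. With limma on log2(CPM + 2) after cyclic loess the counts were 5 in DAPT against vehicle, 8 in DAPT+sErbB4 against sErbB4 and 6 in sErbB4 against DAPT, instead of 11, 13 and 10. The cause was not tested. Leaving out each library in turn gave 8 to 11, 8 to 13 and 7 to 10, the lowest of the second without DAPT+sErbB4 replicate 3, and 0 for both sErbB4 comparisons and the interaction. Without vehicle replicate 3 and sErbB4 replicate 1, an alternative chosen after seeing the data, the counts were 12, 13 and 10. With DESeq2 they were 10, 11 and 9, in fits of the compared libraries alone 10, 10 and 7, with unnamed loci kept 10, 11 and 8, without a filter 11, 13 and 9, without Rn45s 11, 13 and 9, and with RLE size factors 11, 13 and 10.

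Same-number libraries of different groups did not deviate together (r of -0.285 to 0.358 over 18 pairs and 2000 genes, median 0.058, 8 over 0.1, 4 of 12 libraries nearest to their own number), so replicate numbers were not taken as pairs. With the replicate block Cdh12, Pcdh11x, Pcdha12 and Pcdhac1 were not called in DAPT+sErbB4 against sErbB4, and the counts were 11, 9 and 8, and 0 for the sErbB4 comparisons and the interaction.

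For 22 named members in both DAPT comparisons, 834 of 924 recomputed values kept direction and call, 71 lost the call, 4 gained it and 15 turned sign, all 15 in comparisons where the member had no call. Pcdhac2 in DAPT against vehicle was 0.00 without Rn45s and 0.01 with unnamed loci kept, and -0.12 to 0.12 with each library left out. In DAPT+sErbB4 against sErbB4 it was -0.03 without vehicle replicate 3 and sErbB4 replicate 1 or without sErbB4 replicate 1 alone (-0.03 to 0.12 with each library left out). Pcdhb22 was 0.02 in DAPT against vehicle without vehicle replicate 3 and sErbB4 replicate 1, -0.09 to 0.05 with each library left out, and 0.00 to 0.13 in DAPT+sErbB4 against sErbB4. In DAPT against vehicle Cdh13 was -0.10 to 0.05, positive without vehicle replicate 2, and Pcdha4 -0.06 to 0.28, negative without vehicle replicate 2 or DAPT replicate 3. Low counts and exons shared within clusters limit what single alpha genes can show. With a library left out, Pcdhga5 gained a call at 0.33 to 0.36 and Pcdha4 at 0.72.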
